A study of Mus musculus with 6 samples.

Results

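The 10 genes Fos, Fosb, Jun, Junb, Jund, Egr1, Atf3, Ier2, Ier3 and Dusp1 were followed as immediate-early genes of cell dissociation. They were chosen by symbol, and all 10 were among the 17275 genes of the deposited count table. The RNA came from hepatocytes of C57BL/6 mice carrying Axin2rtTA and TetO-H2B-GFP, in which the Axin2 promoter drives a doxycycline-dependent activator that switches on a nuclear green fluorescent histone. All mice drank doxycycline for 7 days; the protocol gives their age as 8 weeks and the sample labels as postnatal day 63. After non-parenchymal cells were removed, hepatocytes with green nuclei (Axin2-positive) were sorted apart from those without (Axin2-negative), with 3 libraries a group. Libraries are numbered by sequencing index, and each of the 3 indices occurs once a group. The labels do not say how many mice a library holds, so p-values measure the spread between these libraries, which may be technical in part.

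Immediate-early genes are transcribed within minutes of a stimulus without need for new protein synthesis. Growth factor, stress and calcium signals reach them through MAP kinases and the factors SRF and CREB, which are present before the stimulus. Enzymatic dissociation of a tissue is known to induce them. Fos and Jun family proteins pair through leucine zippers to form the transcription factor AP-1. Jun, unlike Fos, also pairs with itself.

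Libraries held 77994792 to 103386648 reads for Axin2-positive cells and 75882611 to 101814611 reads for Axin2-negative cells. Axin2, whose promoter drove the sort, was at 2.40, 22.6 and 24.2 CPM (reads of a gene scaled to library size, with TMM factors) in Axin2-positive libraries 1, 2 and 3, against 3.04, 3.75 and 5.75 CPM in Axin2-negative libraries 1, 2 and 3. The library labelled Axin2-positive 1 therefore goes against its label. It was also close to its partner of the same index: the median chi-square a gene between them was 1.16, where counting alone gives 0.455 and the other 14 library pairs gave 9.48 to 28.7. The spans, fits and counts of paired differences that include replicate 1 are therefore also given without it. Reads of Y-linked Ddx3y were many in replicate 2 alone (7164 in the Axin2-positive and 6759 in the Axin2-negative library, against 0 to 3 in the others). Xist went the other way, with 4 and 5 reads in replicate 2, against 32242 to 52151 in the others. Replicate 2 thus held cells of other mice than replicates 1 and 3, and sex differs with the replicate number. The spread between replicates is therefore not technical alone. The hepatocyte gene Alb stood at 156336, 68538 and 94022 CPM in Axin2-positive libraries, against 154432, 60076 and 124274 CPM in Axin2-negative libraries.

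Promoters with the half-site letters that CREB is known to bind are shown, since CREB is among the factors upstream of these genes. RefSeq (GRCm38.p6) promoters were at hand for 8 of the 10 genes, all but Egr1 and Ier2. The 250 bases before the start were searched on both strands. The half-site TGACG occurred in 5 of the 8 (Fos, Fosb, Junb, Atf3 and Dusp1), and in 17.8% of all 32851 promoters of that length. The full palindrome TGACGTCA, which contains the half-site, occurred in Dusp1 only and in 1.55% of all promoters. The letters TATAAA of the TATA box occurred in Fos only and in 12.4% of all. The GC box GGGCGG occurred in 6 of the 8 and in 32.7% of all, and CCAAT in 3 of the 8 and in 33.8% of all. Neither the AP-1 site TGACTCA (4.46% of all) nor the CArG box bound by SRF (1.47% of all) occurred in this window in any of the 8. Starts are those of RefSeq. They lie within 30 bases of the outermost GENCODE start for Fos, Fosb, Jun, Junb and Ier3, and 1210 bases from it for Jund, 34706 for Atf3 and 53656 for Dusp1, so the counts include windows away from the gene bounds given here. A match is a description of the letters, not a site shown to be bound. The last 160 bases before the start of the 5 genes read as follows, 5′ to 3′ on the gene's strand, with TGACG (either strand) and TATAAA in capitals.
Fos (chr12:85473730-85473889, + strand): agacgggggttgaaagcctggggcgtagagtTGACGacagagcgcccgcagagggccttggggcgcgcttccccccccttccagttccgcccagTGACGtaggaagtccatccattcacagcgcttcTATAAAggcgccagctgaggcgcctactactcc
Fosb (chr7:19310046-19310205, - strand): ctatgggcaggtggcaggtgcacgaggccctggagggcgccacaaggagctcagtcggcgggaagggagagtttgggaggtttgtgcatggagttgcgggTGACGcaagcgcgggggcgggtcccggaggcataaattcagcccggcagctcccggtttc
Junb (chr8:84978749-84978908, - strand): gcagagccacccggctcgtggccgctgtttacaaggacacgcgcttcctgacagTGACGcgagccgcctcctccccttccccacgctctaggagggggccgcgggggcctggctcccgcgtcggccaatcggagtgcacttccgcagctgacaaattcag
Atf3 (chr1:191183334-191183493, - strand): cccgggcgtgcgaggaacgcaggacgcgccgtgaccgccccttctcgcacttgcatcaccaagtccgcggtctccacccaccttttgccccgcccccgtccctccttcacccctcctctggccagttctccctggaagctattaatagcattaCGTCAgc
Dusp1 (chr17:26508473-26508632, - strand): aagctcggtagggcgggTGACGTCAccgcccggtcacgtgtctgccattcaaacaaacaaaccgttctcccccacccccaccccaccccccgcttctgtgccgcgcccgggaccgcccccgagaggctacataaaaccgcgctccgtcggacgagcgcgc

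Together the 10 genes took 0.477%, 0.227% and 0.313% of all reads in Axin2-positive libraries 1, 2 and 3, against 0.490%, 0.338% and 0.410% in Axin2-negative libraries 1, 2 and 3. In both groups replicate 1 was highest and replicate 2 lowest. That order, 1 over 3 over 2 in both groups, held for 8 of the 10 genes, against 8.65% of the 12343 genes tested, and it cannot be formed without replicate 1. The log2 range of the replicate means exceeded the largest difference inside any replicate for 8 of the 10 genes, all but Junb and Jund, against 54.7% of all genes. With replicates 2 and 3 alone it did so for 5 of the 10 (Fos, Fosb, Egr1, Atf3 and Ier3), against 36.4% of all genes. Apart from Ier3, the genes correlated with each other over the 6 libraries (log2 CPM, 36 pairs, Pearson r 0.56 to 0.999, median 0.91). Libraries of 1 number share an index, and depth and Ddx3y reads differ between numbers, so the coefficients are a description. The 4 libraries left without replicate 1 are too few for a coefficient.

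**Figure D1:**
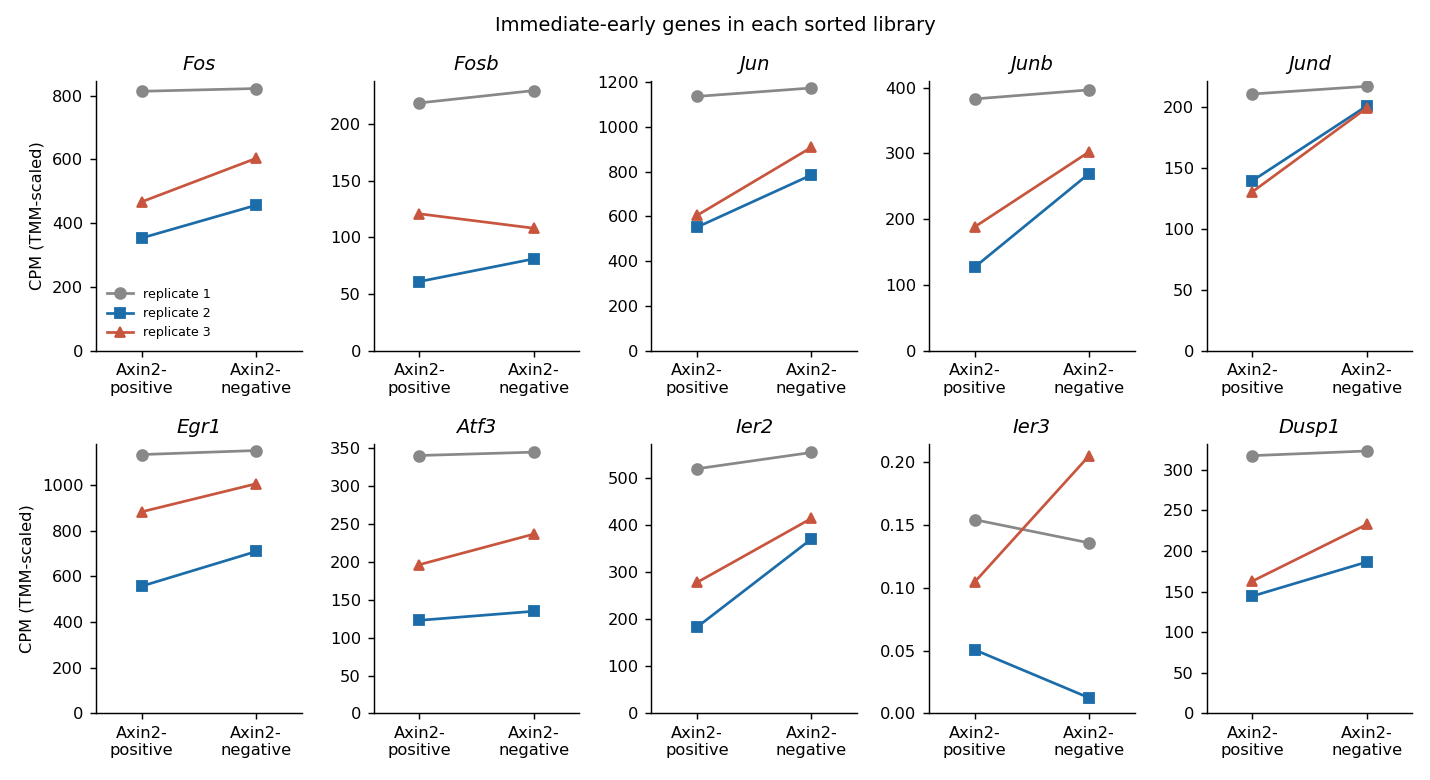
Level of each of the 10 genes in CPM (y axis, from 0) in Axin2-positive and Axin2-negative libraries (x axis), with a line joining the 2 libraries of a replicate. Replicate 1 lies on top and nearly level in 9 of the 10 panels, and in replicates 2 and 3 most lines are lower on the Axin2-positive side.

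Jun was the most abundant Jun family gene by length-scaled level. In the authors' deposited table it stood at 340 FPKM in Axin2-positive and 425 FPKM in Axin2-negative cells, Junb at 209 and 336 FPKM and Jund at 86.2 and 114 FPKM. These are 1 value a group, without an error. Jun (GRCm38 chromosome 4, 95049034 to 95052222, 1 exon) encodes the founding Jun subunit of AP-1. It gave 1137, 552 and 605 CPM in Axin2-positive libraries 1, 2 and 3, against 1174, 785 and 909 CPM in Axin2-negative libraries 1, 2 and 3. The groups overlapped because of replicate 1, and in replicates 2 and 3 the Axin2-positive library held 70.3% and 66.5% of its partner's level. Junb (chromosome 8, 84974484 to 84978718) encodes a Jun protein that can restrain Jun in growth control. It gave 383, 127 and 188 CPM in Axin2-positive libraries, against 397, 269 and 302 CPM in Axin2-negative libraries. Its Axin2-positive level was 96.5%, 47.2% and 62.3% of its partner's in replicates 1, 2 and 3, the lowest share in replicate 2 among the 10 genes. Jund (chromosome 8, 70698949 to 70700616), the Jun gene known for steady expression in resting cells, gave 211, 139 and 130 CPM in Axin2-positive libraries, against 217, 201 and 199 CPM in Axin2-negative libraries. It varied least of the 10, 1.66-fold over all libraries and 1.54-fold over those of replicates 2 and 3. Its Axin2-positive libraries 2 and 3 were 69.4% and 65.5% of their partners.

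Over all 6 libraries Jun averaged 765 ± 323 CPM in Axin2-positive and 956 ± 199 CPM in Axin2-negative libraries (SD, n = 3 each). In edgeR this came to -0.32 on the log2 scale (SE 0.33; adjusted p = 0.999 by Benjamini-Hochberg). The values were -0.47 (SE 0.42) for Junb and -0.36 (SE 0.21) for Jund, both at the same adjusted p. None of the 3 passed the test, and the difference of the means of Jun was smaller than the SD of its Axin2-positive libraries. GENCODE places the antisense gene Junos over Jun, Gm11175 over Jund and Prdx2 over Junb, each on the opposite strand, and without the counter's strand setting their reads cannot be told apart. Prdx2 was at 77.5, 97.3 and 81.7 CPM in Axin2-positive libraries, against 78.7, 83.2 and 68.7 CPM in Axin2-negative libraries, which is the opposite order to Junb in replicates 2 and 3.

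Fos (chromosome 12, 85473890 to 85477273, + strand) encodes the Fos subunit of AP-1. It gave 813, 353 and 467 CPM in Axin2-positive libraries 1, 2 and 3, against 822, 456 and 603 CPM in Axin2-negative libraries 1, 2 and 3. Replicates 2 and 3 had the same Axin2-positive share, 77.5% and 77.4% of the partner, and replicate 1 had 98.9%. The log2 fold change over 6 libraries was -0.20 (SE 0.37, edgeR adjusted p = 0.999). Fosb (chromosome 7, 19302696 to 19310051), a paralog of Fos, spanned 3.76-fold over all libraries and 1.98-fold over those of replicates 2 and 3. It gave 219, 61.1 and 121 CPM in Axin2-positive libraries, against 230, 81.1 and 108 CPM in Axin2-negative libraries. Here replicates 2 and 3 went opposite ways, with Axin2-positive at 75.3% and 112% of the partner. Its log2 fold change was -0.064 (SE 0.57, edgeR adjusted p = 0.999).

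Egr1 encodes a zinc finger factor induced through SRF (chromosome 18, 34859823 to 34864984). It gave 1132, 557 and 882 CPM in Axin2-positive libraries 1, 2 and 3, against 1150, 708 and 1004 CPM in Axin2-negative libraries 1, 2 and 3. Its Axin2-positive share was 98.5%, 78.6% and 87.8%, nearer to the partner in replicate 3 than that of Fos or the Jun genes. Atf3 (chromosome 1, 191170296 to 191218039) encodes a stress-induced factor that can pair with Jun. It gave 341, 123 and 197 CPM in Axin2-positive libraries, against 345, 135 and 237 CPM in Axin2-negative libraries. With 98.7%, 91.1% and 83.0% of the partner, it differed little inside a replicate, while it spanned 2.81-fold over all libraries and 1.93-fold over those of replicates 2 and 3. The log2 fold changes were -0.16 (SE 0.31) for Egr1 and -0.12 (SE 0.48) for Atf3, both at an edgeR adjusted p of 0.999. The authors' deposited table gave Atf3 as 109 FPKM in Axin2-positive and 109.5 FPKM in Axin2-negative cells, with a p-value of 0.998.

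Ier2 (chromosome 8, 84661331 to 84662852, 1 exon) encodes a small nuclear protein of the early response. It gave 520, 183 and 279 CPM in Axin2-positive libraries 1, 2 and 3, against 555, 371 and 415 CPM in Axin2-negative libraries 1, 2 and 3. It resembled Junb, with 93.8%, 49.5% and 67.2% of the partner in replicates 1, 2 and 3. Dusp1 (chromosome 17, 26505590 to 26562128) encodes a phosphatase that switches MAP kinases off and so ends the response. It gave 318, 144 and 163 CPM in Axin2-positive libraries, against 323, 187 and 233 CPM in Axin2-negative libraries. Its log2 fold change was -0.25 (SE 0.37) and that of Ier2 -0.45 (SE 0.40), both at an edgeR adjusted p of 0.999. The annotated Dusp1 locus also overlaps Ergic1 on the other strand, which was at 71.1 to 92.2 CPM in Axin2-positive and 71.0 to 104 CPM in Axin2-negative libraries.

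Ier3, a gene for a survival factor of the early response and an NF-kB target, was nearly silent (chromosome 17, 35821684 to 35822923). It had 15, 4 and 9 reads in Axin2-positive libraries 1, 2 and 3, against 13, 1 and 18 reads in Axin2-negative libraries 1, 2 and 3. The ratios of Axin2-positive over Axin2-negative were 1.14 (exact 95% interval 0.504 to 2.59), 4.07 (0.403 to 201) and 0.510 (0.202 to 1.20). All 3 intervals include 1, so no difference was detectable at this depth. Each of the other 9 genes had at least 4821 reads in every library.

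Over 6 libraries all 10 genes overlapped between the groups, while 3.77% of all genes tested had every Axin2-positive library below every Axin2-negative one. In replicates 2 and 3 alone, both Axin2-positive libraries were below both Axin2-negative ones for Jun, Junb, Jund, Ier2 and Dusp1. Fos, Fosb, Egr1, Atf3 and Ier3 still overlapped there. The share of all genes without replicate 1 was not counted. The 3.77% over 6 libraries is no background for it, so this split is a description only. edgeR called 0 of the 10 in either direction over 6 libraries, against a background of 0.0% called higher and 0.0% called lower. At an unadjusted p under 0.05 it listed 0 of the 10, and 279 of 12343 genes in all (1.34% higher and 0.924% lower); DESeq2 and limma-voom also called 0 genes. All 10 fold changes were below 0, with a median of -0.23 on the log2 scale against -0.0047 over all genes tested. The median was -0.62 without Axin2-positive 1, -0.0076 without Axin2-positive 2 (5 of 10 above 0) and -0.043 without Axin2-negative 1 (4 of 10 above 0). In the authors' deposited table none passed either: Junb had the lowest p-value of the 10, 0.0225 (q-value 0.963), and Ier2 followed with 0.0509 (q-value 0.9995).

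**Figure D2:**
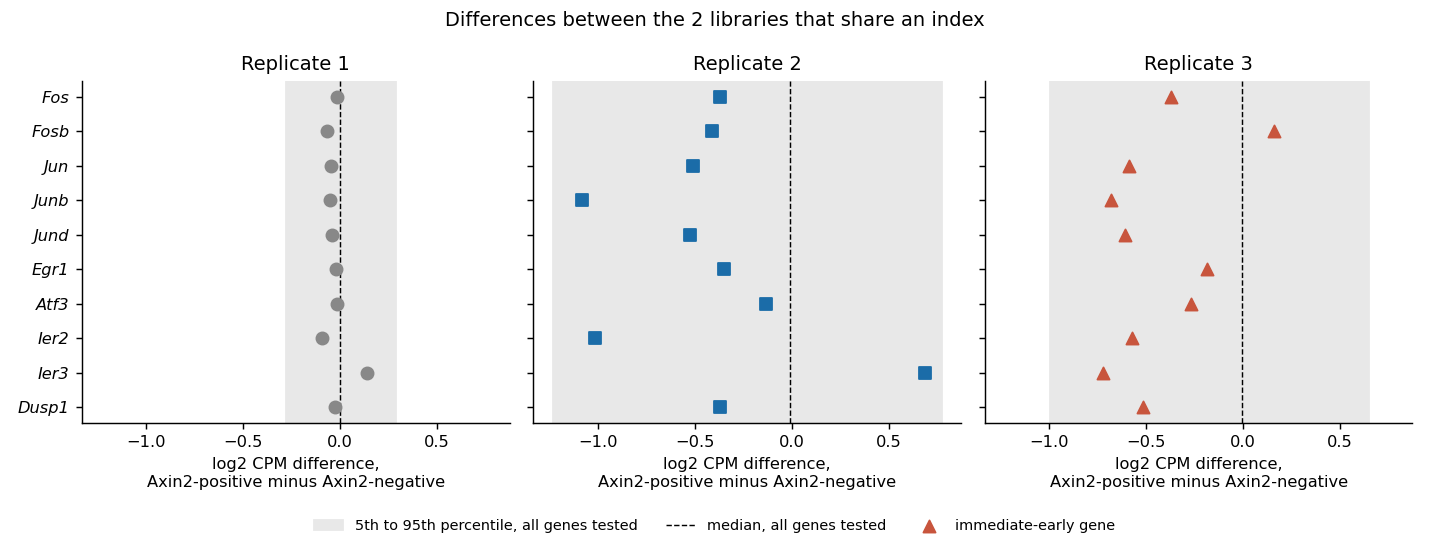
Log2 CPM difference, Axin2-positive minus Axin2-negative (x axis), of each of the 10 genes (y axis) inside replicates 1, 2 and 3. Grey bands span the 5th to 95th percentile of all genes tested and the dashed line is their median; every point lies inside its band, and all but Ier3 in replicates 1 and 2 and Fosb in replicate 3 lie left of 0.

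Set against the partner of the same index, 8 of the 10 genes were lower in the Axin2-positive library in replicates 2 and 3, against 36.5% of all genes tested. The same 8 were lower in replicate 1 as well, against 20.1% of all genes lower in replicates 1, 2 and 3. The exceptions were Fosb and Ier3. In replicate 1 the differences were small, with a median of -0.034 on the log2 scale and the lowest, for Ier2, at -0.093. In replicate 2 the median was -0.39, with Junb at -1.08 and Ier2 at -1.02. In replicate 3 the median was -0.54, with Junb at -0.68, Jund at -0.61 and Jun at -0.59. Ier3 was lowest there at -0.72, but on 9 and 18 reads. With 0.5 CPM added to each value instead of 0.05, the median in replicate 3 was -0.44. The median of all genes tested was 0.00039, -0.0069 and -0.0030 in replicates 1, 2 and 3. A difference of 1.5-fold or more toward lower levels was reached by 0 of the 10 genes in replicate 1 (1.64% of all genes), by 2 in replicate 2 (12.5% of all genes) and by 4 in replicate 3 (10.5%), and in both by Junb alone (6.64%). The 4 in replicate 3 were Junb, Jund, Jun and the nearly silent Ier3.

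With the replicate number as a block, edgeR again called 0 of the 10 genes (background 0.0% higher and 0.0% lower). The block narrowed the errors, and 4 of the 10 had an unadjusted p under 0.05, all lower in Axin2-positive libraries, against 4.81% of all genes lower and 4.36% higher. These were Ier2 (log2 fold change -0.56, SE 0.19), Junb (-0.61, SE 0.21), Jund (-0.39, SE 0.14) and Jun (-0.38, SE 0.14). The edgeR adjusted p of each was 0.450.

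Without both libraries of replicate 1, the block fit of replicates 2 and 3 called 4 of the 9 genes tested lower and 0 higher, against 4.01% of 12385 genes called lower and 3.43% called higher. Junb (log2 fold change -0.88, SE 0.14, edgeR adjusted p = 0.0301), Jund (-0.57, SE 0.10, adjusted p = 0.0402), Ier2 (-0.79, SE 0.14, adjusted p = 0.0403) and Jun (-0.55, SE 0.10, adjusted p = 0.0432) fell. All were lower in 2 of 2 pairs. Dusp1 (-0.44, SE 0.11, adjusted p = 0.0727), Fos (-0.37, SE 0.10, adjusted p = 0.0995), Egr1 (-0.27, SE 0.11, adjusted p = 0.192), Atf3 (-0.20, SE 0.11, adjusted p = 0.291) and Fosb (-0.12, SE 0.16, adjusted p = 0.665) did not pass in edgeR. This fit has 1 residual degree of freedom, and replicate 1 was left out with its small difference known, so its calls are no independent evidence. The same fit of replicates 1 and 3, or of 1 and 2, gave 0 calls among all genes. Fitted by group alone without replicate 1, edgeR called 0 genes. There 4 of the 9 had an unadjusted p under 0.05, against 4.78% of all genes lower and 4.21% higher.

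Because scaling cannot touch a ratio of 2 genes in 1 library, the genes were also set against Jun. Junb held 33.7, 23.02 and 31.1 reads per 100 Jun reads in Axin2-positive libraries 1, 2 and 3, against 33.8, 34.3 and 33.3 in Axin2-negative libraries 1, 2 and 3. The Axin2-positive library of replicate 2 stood apart from the other 5, and Ier2 showed the same, with 45.8, 33.2 and 46.0 against 47.3, 47.2 and 45.6. Egr1 held 99.6, 101 and 146 reads per 100 Jun reads in Axin2-positive libraries, against 97.9, 90.2 and 111 in Axin2-negative libraries. Fos gave 71.6, 64.0 and 77.2 in Axin2-positive libraries, against 70.0, 58.1 and 66.4 in Axin2-negative libraries, so relative to Jun both were higher on the Axin2-positive side of replicates 2 and 3. Jund kept nearly the same ratio inside each replicate (18.5, 25.2 and 21.5 against 18.5, 25.6 and 21.9). These ratios show unequal differences between the genes and were not tested.

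**Figure D3:**
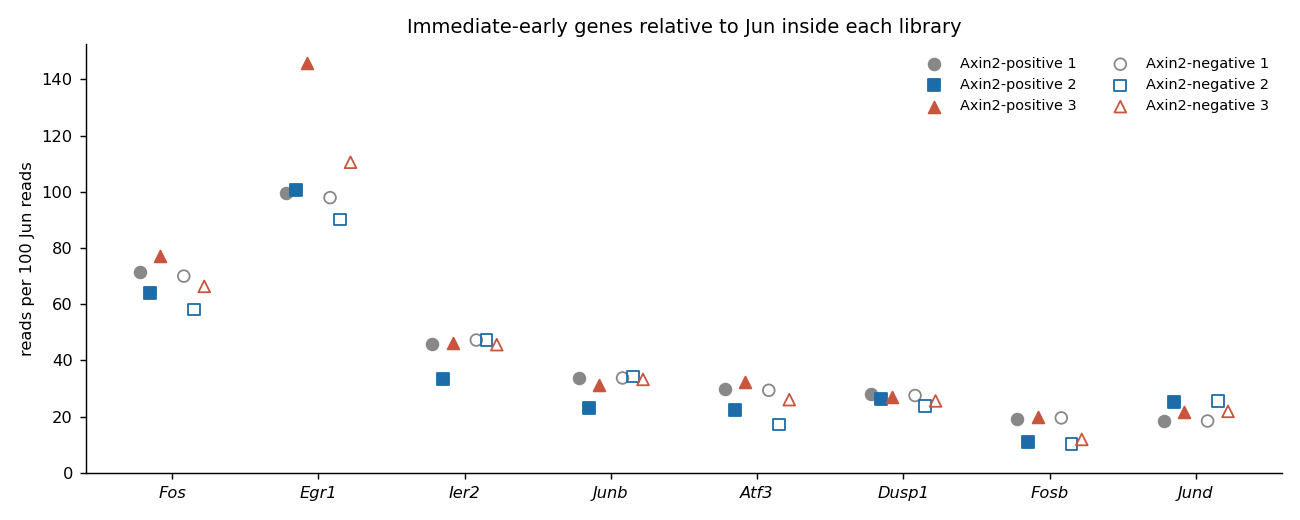
Reads of 8 of the genes per 100 Jun reads (y axis, from 0) in each library, with filled symbols for Axin2-positive and open symbols for Axin2-negative libraries and 1 shape a replicate. Junb and Ier2 are low in Axin2-positive 2, at 23.02 and 33.2, and Egr1 is high in Axin2-positive 3, at 146.

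Other genes of the same response were counted from gene lists. Of 41 tested further immediate-early genes, edgeR called 0 over 6 libraries and 0 with the block; their median log2 difference was -0.019, -0.24 and -0.41 in replicates 1, 2 and 3. The fit of replicates 2 and 3 called 7 of 42 lower and 0 higher, against 4.01% lower and 3.43% higher of all genes. Among them Nr4a1, an orphan nuclear receptor gene, was at 228, 118 and 232 CPM in Axin2-positive libraries 1, 2 and 3, against 231, 276 and 350 CPM in Axin2-negative libraries 1, 2 and 3 (log2 fold change in that fit -0.91, edgeR adjusted p = 0.0462). Gadd45g, a growth arrest gene, was called as well (-0.66, edgeR adjusted p = 0.0403), and so was the antiproliferative gene Btg2 (-0.56, edgeR adjusted p = 0.0425). The others called were Egr2, Klf10, Btg1 and Bhlhe40, named after their values were seen. Klf10, a zinc finger gene, was at 112, 8.41 and 11.2 CPM in Axin2-positive libraries 1, 2 and 3, against 112, 24.6 and 22.2 CPM in Axin2-negative libraries 1, 2 and 3. It spanned 13.3-fold over all libraries and 2.92-fold over those of replicates 2 and 3.

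Tob1, Trib1, Errfi1 and Zfp36 did not pass in the fit of replicates 2 and 3, with values below 0 in both (log2 fold changes -0.39, -0.35, -0.36 and -0.57; edgeR adjusted p 0.0912, 0.107, 0.0844 and 0.0604). Errfi1, which encodes an inhibitor of the EGF receptor, was the most abundant of the list at 1909, 1584 and 1548 CPM in Axin2-positive libraries, against 1886, 1998 and 2036 CPM in Axin2-negative libraries. Of the 41 genes, 23 were lower and 7 higher in the Axin2-positive library of both replicates 2 and 3, while 36.5% of all genes tested were lower and 35.3% higher in both. None of the 7 higher ones passed in the fit of replicates 2 and 3.

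Of 13 tested AP-1 partners and related basic zipper genes, 0 were called over 6 libraries. The fit of replicates 2 and 3 called 1 lower, against 4.01% of all genes. This was Cebpb, a liver-enriched zipper factor (log2 fold change in that fit -0.86, edgeR adjusted p = 0.0126). It was at 44.3, 63.7 and 79.9 CPM in Axin2-positive libraries, against 45.6, 118 and 143 CPM in Axin2-negative libraries. Cebpb was lowest in replicate 1, where 9 of the 10 genes, all but Ier3, were highest. Mafg, Cebpd, Maff, Atf4 and Atf2 had log2 fold changes of -0.26, -0.76, -0.44, -0.14 and 0.13 there and did not pass (edgeR adjusted p 0.104 to 0.486).

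The other dual-specificity phosphatases did not share 1 direction. Dusp6, which acts on ERK, was at 162, 224 and 230 CPM in Axin2-positive libraries 1, 2 and 3, against 163, 88.2 and 155.5 CPM in Axin2-negative libraries 1, 2 and 3, the opposite order to Dusp1 in replicates 2 and 3. Its log2 fold change in the fit of those replicates was 0.96 (SE 0.20, edgeR adjusted p = 0.0534), and the difference between the 2 phosphatases was not tested. That fit called 2 of the 11 tested lower, Dusp5 and Dusp14, and 0 higher, against 4.01% lower and 3.43% higher of all genes. Dusp5, also directed at ERK, was at 8.77, 0.127 and 0.861 CPM in Axin2-positive libraries, against 8.49, 1.18 and 4.24 CPM in Axin2-negative libraries (-2.62, edgeR adjusted p = 0.0175). Dusp14 had 100, 1 and 4 reads in Axin2-positive libraries, against 125, 69 and 67 reads in Axin2-negative libraries. Both names were chosen after their values were seen. Dusp4 (-2.45), Dusp16 (-0.18), Dusp3 (-0.41), Dusp22 (-0.20) and Dusp10 (0.32) did not pass there.

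Kinases and SRF cofactors upstream of the response stayed near 0 as a list. Their median log2 difference was 0.011, -0.039 and -0.014 in replicates 1, 2 and 3, over 28 genes tested. The fit of replicates 2 and 3 called 1 higher, the MAP kinase kinase Map2k1 (0.42, edgeR adjusted p = 0.0484), and 1 lower, the ribosomal S6 kinase Rps6ka1 (-0.94, edgeR adjusted p = 0.0434). Among all genes that fit called 3.43% higher and 4.01% lower, a share near that of this list. Egfr, the EGF receptor gene, was high in replicate 2, at 438 CPM in the Axin2-positive and 667 CPM in the Axin2-negative library, and at 247.6 and 243.5 CPM in Axin2-positive 1 and 3, against 248.7 and 244.8 CPM in Axin2-negative 1 and 3. Elk1 and Map2k7 had log2 fold changes of -0.23 and -0.34 in that fit and did not pass (edgeR adjusted p 0.366 and 0.122).

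Heat-shock genes, also known to respond to dissociation, had medians above 0. The median log2 difference of the 20 tested was 0.018, 0.27 and 0.22 in replicates 1, 2 and 3. Of them, 15 were higher in both replicates 2 and 3, against 35.3% of all genes tested. Dnajb1 and Hsf1, named after their values were seen, were the 2 lower in both, against 36.5% of all genes tested. They did not pass in the fit of those replicates (log2 fold changes -0.30 and -0.14). Over 6 libraries 0 were called. The fit of replicates 2 and 3 called 5 higher and 0 lower, against 3.43% higher and 4.01% lower of all genes. The 5 were Hsf2, Hsp90aa1, Dnaja1, Hsph1 and Hspa1b, the last 2 named after their values were seen. Hsp90aa1, the inducible Hsp90 gene, was at 119, 242 and 162 CPM in Axin2-positive libraries 1, 2 and 3, against 116, 139 and 104.5 CPM in Axin2-negative libraries 1, 2 and 3 (log2 fold change in that fit 0.72, edgeR adjusted p = 0.0279). Dnaja1, an Hsp70 co-chaperone gene, was at 175, 358 and 360 CPM in Axin2-positive libraries, against 170, 207 and 246 CPM in Axin2-negative libraries (0.67, edgeR adjusted p = 0.0369). Hspa1b and its near-identical copy Hspa1a share reads, so their counts are uncertain. The chaperones Hspe1, Hspa8, Hspa5 and Hsp90b1 did not pass (0.43, 0.11, 0.16 and 0.13).

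**Figure D4:**
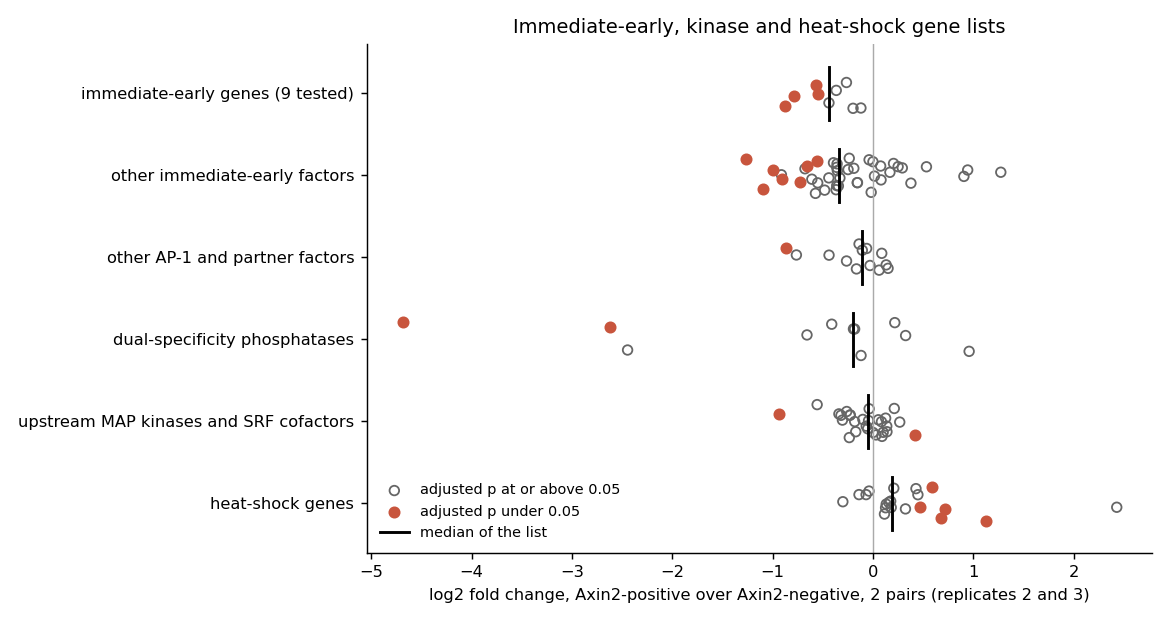
Log2 fold change of each tested gene, Axin2-positive over Axin2-negative, in the fit of replicates 2 and 3 (x axis), for the immediate-early genes and 5 other lists (y axis). Filled points have an edgeR adjusted p under 0.05 and bars are medians, at -0.44 for the immediate-early genes, -0.34 for the further immediate-early genes and 0.19 for heat-shock genes.

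The libraries also differed in other ways, and their part in these values was not tested. In replicates 2 and 3, pericentral genes were higher and periportal genes lower in Axin2-positive libraries. The summed level of 9 pericentral genes was 2081, 15102 and 16090 CPM in Axin2-positive libraries 1, 2 and 3, against 2076, 3668 and 5160 CPM in Axin2-negative libraries 1, 2 and 3. That of 9 periportal genes was 7964, 2935 and 4370 CPM in Axin2-positive libraries, against 8037, 9699 and 10222 CPM in Axin2-negative libraries. In the fit of replicates 2 and 3, all 9 pericentral genes were called higher and all 9 periportal genes lower. The 9 pericentral genes include Axin2, whose promoter drove the sort and whose level led to leaving out replicate 1. Its own call is therefore no evidence. Of all genes, that fit called 3.43% higher and 4.01% lower. Of 7 tested general hepatocyte genes, Alb among them, 5 were lower and 1 higher in both replicates 2 and 3. Of all genes tested, 36.5% were lower and 35.3% higher in both. In the fit of those replicates the 7 centred lower, with a median of -0.34 (log2), beside -0.44 for the 9 immediate-early genes. That fit called 1 of the 7 lower, Apoa1 (-0.48, edgeR adjusted p = 0.0382), and 0 higher. Fewer cells of a type and less RNA per cell cannot be told apart in such bulk libraries.

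Markers of other liver cells were low beside the 10 genes, whose summed level was 2241 to 5074 CPM in Axin2-positive and 3193 to 5213 CPM in Axin2-negative libraries. The 15 listed Kupffer cell and macrophage genes summed to 35.0, 96.4 and 44.6 CPM in Axin2-positive libraries 1, 2 and 3, against 34.9, 107 and 76.3 CPM in Axin2-negative libraries 1, 2 and 3. Most of this was Mpeg1, at 30.1 to 101 CPM over all libraries. Mpeg1 did not pass in the fit of replicates 2 and 3 (log2 fold change -0.096, edgeR adjusted p = 0.526). Of the 11 tested, 8 were called lower in the fit of replicates 2 and 3, against 4.01% of all genes. Among them were Clec4f and Cd5l, at 0.101 and 0.0887 CPM in Axin2-positive 2 and at 1.24 and 1.01 CPM in Axin2-positive 3. Their levels were 1.13 and 1.21 CPM in Axin2-negative 2 and 7.25 and 6.85 CPM in Axin2-negative 3. The 15 endothelial genes, led by Stab2, Ehd3 and Eng, summed to 79.9, 3.45 and 82.9 CPM in Axin2-positive libraries 1, 2 and 3. Axin2-negative libraries 1, 2 and 3 gave 79.7, 8.85 and 117 CPM. Of 14 tested, 0 were called, but 13 were lower in both replicates 2 and 3, against 36.5% of all genes tested. The 12 stellate and fibroblast genes, led by Reln, Dcn and Lrat, summed to at most 4.97 CPM in Axin2-positive and 5.77 CPM in Axin2-negative libraries, with Dcn at 0 in Axin2-positive 2. The 7 lymphocyte and neutrophil genes summed to at most 0.154 CPM in Axin2-positive and 0.650 CPM in Axin2-negative libraries. Of the bile duct genes, Sox9 was at 7.80, 0.0633 and 0.0465 CPM in Axin2-positive libraries 1, 2 and 3, against 8.28, 1.67 and 0.923 CPM in Axin2-negative libraries 1, 2 and 3. Spp1 was at 3.16, 0.101 and 0.128 CPM in Axin2-positive libraries, against 3.08, 1.57 and 1.76 CPM in Axin2-negative libraries, and both were called lower in the fit of replicates 2 and 3.

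Over the 6 libraries, the 5 other genes whose log2 CPM followed the mean of the 10 most closely were Cfb, Shmt1, Ikbip, Egr2 and Slc38a7, with Pearson r of 0.996 to 0.999. Of the 12333 genes compared, 277 (2.25%) reached an r of 0.95 and 30 (0.243%) reached 0.99. The coefficients rest on all 6 libraries, and the 4 without replicate 1 are too few for one. Cfb, the complement factor B gene, was at 1642, 1082 and 1293 CPM in Axin2-positive libraries 1, 2 and 3, against 1661, 1242 and 1460 CPM in Axin2-negative libraries 1, 2 and 3. Egr2, a zinc finger gene related to Egr1, is itself an immediate-early gene. It was at 43.8, 4.89 and 9.72 CPM in Axin2-positive libraries, against 42.9, 10.3 and 21.1 CPM in Axin2-negative libraries, a span of 8.96-fold over all libraries and 4.31-fold over those of replicates 2 and 3. Its log2 fold change in the fit of replicates 2 and 3 was -1.09 (SE 0.11, edgeR adjusted p = 0.00931). Over all 6 libraries it was -0.35 (edgeR adjusted p = 0.999).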

How the data were processed

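RNA of 6 libraries of sorted mouse hepatocytes was read as whole-number counts per gene symbol, which the authors deposited for 17275 genes. The submitters' processing notes name TopHat2 2.0.11 and mm10. No source used here gives the gene counter, the annotation, or whether strand was used. The authors also deposited FPKM values, p-values and q-values, 1 set a transcript and group, for which the submitters' processing notes name Cuffdiff 2.2.2. The log2 fold changes in the authors' deposited table run Axin2-negative over Axin2-positive.

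Counts were fitted with edgeR 4.0.16 in R 4.3.3 (group as the only term, its quasi-likelihood test, TMM scaling after filterByExpr), and p-values were adjusted by Benjamini-Hochberg over the 12343 genes tested, with a threshold of 0.05. Standard errors come from the fold change and its F statistic. CPM values use TMM-scaled totals, and differences within a replicate number use log2 of CPM plus 0.05. Ratios of single pairs carry exact binomial 95% intervals, which cover counting error only. Alternatives were the replicate block, leaving out libraries or pairs, DESeq2 1.42.0, limma-voom (limma 3.58.1), other scalings and no filter. The group-only fit without replicate 1 was added after seeing the data. The labels name a stranded TruSeq mRNA kit.

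The replicate number stands for the sequencing index that 1 library of each group shares. Across genes, same-numbered libraries deviated together from their group means (r 0.68, 0.82 and 0.75), so the numbers were taken to pair the libraries.

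The 10 genes, the lists and the tests were chosen with earlier results of these data known. Named from each list were the 4 genes with the lowest p and the 3 most abundant, and for markers the 3 most abundant. Any others were named after their values were seen, and a few that the rule names are not reported here. Promoter sequences are from RefSeq (GRCm38.p6) and gene positions from GENCODE M21 (GRCm38).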

Additional observations from a re-analysis of the deposited data

How the results depend on the processing

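The replicate block without both libraries of replicate 1 gave 425 genes higher, 497 lower and 4 of the immediate-early genes lower, against 0 each over 6 libraries. Leaving out 1 library at a time gave 0 to 1 genes higher and 0 to 5 lower, the calls arising without the library labelled Axin2-positive 1, and 0 of the 10 genes; the cause was not tested. With 1 library left out, the log2 fold change ranged from -0.61 to 0.040 for Fos, -0.62 to 0.50 for Fosb, -0.41 to 0.077 for Egr1, -0.58 to 0.24 for Atf3 and -0.71 to 0.46 for Ier3. The lowest values, apart from that of Ier3, came without the library labelled Axin2-positive 1. The turns to a positive sign came without the library labelled Axin2-positive 2 for all 5 genes, without Axin2-negative 1 for Fos, Fosb, Egr1 and Atf3, without Axin2-positive 3 for Fosb and without Axin2-negative 3 for Ier3. Those of Jun (-0.73 to -0.14), Junb (-1.04 to -0.18), Jund (-0.61 to -0.23), Ier2 (-0.95 to -0.16) and Dusp1 (-0.69 to -0.0098) stayed below 0. Fosb was at 0.045 with the replicate block without both libraries of replicate 2. Ier3 was at 0.66 with the replicate block without both libraries of replicate 3 and at 0.27 with limma-voom; its depth of 1 to 18 reads limits any statement. Under DESeq2, other scalings and no filter, the direction of all 10 genes was as in the fit of 6 libraries, and the median difference in replicate 3 was -0.44 with an offset of 0.5 or 1 CPM. The block changed no other call.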
